A study of Mus musculus with 43 samples.

Results

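The genes Creb5, Galnt16, Ptprz1, Slc1a6, Maob, Fjx1, Dusp8 and Myom1 were followed, 8 of the 52636 genes in each of the expression tables of mouse colon fibroblasts and mouse colon organoids. The 8 genes were selected on earlier results of these data, for a higher level in fibroblasts treated with regorafenib (R4 and R10 against vehicle) and for a weak or absent response in organoids, so the values of those contrasts describe the choice and carry no test here. All 8 passed the filter of 200 CP20M in at least 2 fibroblast libraries, and 6 of them did so only through libraries with regorafenib. In organoids 3 of the 8 passed, Creb5, Dusp8 and Ptprz1, and Creb5 did so only through libraries with regorafenib. The data go against the name of fibroblast-specific genes for Creb5 and Dusp8, which were also higher with regorafenib in organoid lines. Fjx1, which did not pass the filter in organoids, was higher with regorafenib at 8 µM than with vehicle in 3 of 3 Apc wild-type organoid lines. That rested on 3 to 48 reads. CP20M is the number of reads on a gene per 20000000 counted reads of its library, and a library of that many reads has 1 read at 1 CP20M.

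The fibroblasts were grown from colon tissue of C57BL/6 mice left after removal of the crypts, as lines M3, M3(2), M1(2) and M11, and were treated over 7 days. The fibroblast groups were vehicle (Ve, DMSO), regorafenib at 4 µM (R4), autogramin-2 at 1 µM (A1) and both drugs at these doses (R4A1), with 4 libraries each, and regorafenib at 10 µM (R10), with 3 libraries, from M3, M3(2) and M1(2). The organoids came from adult mice with a tamoxifen-inducible Cre under the villin promoter, which acts in the intestinal epithelium, and all of these mice had received tamoxifen. Colonoids (lines M1, M40 and M41) carried Apc wt/wt, and tumoroids (lines F11, M14 and M3) carried Apc flox/flox, which the Cre recombines. Each organoid line was cultured for 6 days with Ve, R4, regorafenib at 8 µM (R8) or 5-FU at 1 µM, which gave 24 libraries. The libraries of a group come from different lines.

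Regorafenib inhibits several kinases, among them the receptors for VEGF, PDGF and FGF, KIT, RET and RAF kinases. Autogramin-2 is a small molecule against GRAMD1A, a sterol carrier of the endoplasmic reticulum, and is used to stop cells from degrading their own material by autophagy. Fibroblasts of the colon build the matrix under the epithelium and respond to PDGF and FGF. The 8 genes have unrelated roles. Creb5 is a CREB family transcription factor with a leucine zipper, and Dusp8 is a dual specificity phosphatase that removes phosphate from JNK and p38 MAP kinases. Ptprz1 is a receptor tyrosine phosphatase that binds pleiotrophin and is best known from glia, and Fjx1 is the relative of the fly kinase four-jointed, which acts on Fat and Dachsous cadherins. Galnt16 adds the first sugar of O-linked glycans, Maob is the mitochondrial monoamine oxidase B, Slc1a6 is the glutamate transporter EAAT4 and Myom1 is the myomesin of the M-band of striated muscle.

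The genes lie apart from each other. In the GENCODE M21 annotation of GRCm38 they fall on chromosomes 2 (Fjx1, 102449366 to 102452499, minus strand), 6 (Ptprz1, 22875502 to 23052916, plus, and Creb5, 53287270 to 53700376, plus), 7 (Dusp8, 142079490 to 142095843, minus), 10 (Slc1a6, 78780496 to 78814765, plus), 12 (Galnt16, 80518277 to 80630972, plus), 17 (Myom1, 71002633 to 71126856, plus) and X (Maob, 16709282 to 16817366, minus). Galnt16 overlaps the antisense gene 4933406B15Rik (80583011 to 80597140), which reached 411 CP20M in fibroblasts, and the first bases of Myom1 overlap Myl12a on the opposite strand, which lay between 5585 and 11505 CP20M. Whether counting used the strand is not given in the sources used here, and the exon bases shared with these partners were not measured. Whether any reads counted for Galnt16 or Myom1 came from the partners is therefore not known.

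Promoter windows were read because the 8 genes have like patterns over the libraries. RefSeq windows (GRCm38.p6, 250 bases before to 50 after a transcription start) were at hand for 6 of the 8 genes, 9 windows in all, and for neither Maob nor Fjx1. The only Myom1 window (chr17:71019307-71019606) lies inside the gene. No window at the annotated Myom1 start (71002633) was at hand, so that sequence was not read. The cAMP response element TGACGTCA, the sequence that CREB factors bind, was present in the windows of Creb5 and Dusp8 and in no window of Galnt16, Ptprz1, Slc1a6 or Myom1. Of all 32851 windows 1.79% hold it. The stretch from base -150 to base -36 of 3 windows is shown, 5′ to 3′ on the strand of the gene, with the element in capitals: Creb5 (chr6:53287153-53287267, plus) and Dusp8 (chr7:142095320-142095434, minus) because they hold it and Ptprz1 (chr6:22875352-22875466, plus) as the member with the most reads and without the element.
Creb5: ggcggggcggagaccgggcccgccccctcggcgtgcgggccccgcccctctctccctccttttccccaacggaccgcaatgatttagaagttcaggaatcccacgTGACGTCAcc
Dusp8: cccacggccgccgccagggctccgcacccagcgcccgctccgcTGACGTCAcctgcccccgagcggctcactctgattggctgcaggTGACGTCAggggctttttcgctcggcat
Ptprz1: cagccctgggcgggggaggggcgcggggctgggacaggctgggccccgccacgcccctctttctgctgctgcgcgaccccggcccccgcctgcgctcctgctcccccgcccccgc

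The Creb5 window holds the element once, starting at base -45, where its first bases overlap an E-box (CACGTG, present in 7.15% of windows). The Dusp8 window holds it at bases -107 and -63. An AP-1 site (TGANTCA, 7.81% of windows) was found in the second Creb5 window and in 1 Galnt16 window, and an E-box also in the Slc1a6 window. The TEAD site GGAATG (14.7% of windows) occurred in windows of Creb5, Galnt16 and Slc1a6. All motifs were searched on both strands. None of the 4 was found in the Ptprz1 window or in the Myom1 window, which lies inside that gene and not at its annotated start. A match describes the letters of the window and no binding was measured.

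In vehicle-treated fibroblasts the genes were low. Per kilobase of merged exon, the mean level in Ve was lowest for Galnt16 (3.88 ± 2.13 CP20M per kb, SD, n = 4) and Creb5 (5.06 ± 0.724) and highest for Fjx1 (46.6 ± 13.5) and Dusp8 (68.2 ± 4.22). Myom1 lay at 8.06 ± 1.87, and Slc1a6, Maob and Ptprz1 fell between 21.6 and 27.2, closer to each other than the spread between lines. At R10 the order was different. Slc1a6 (688 ± 188 CP20M per kb, n = 3) and Ptprz1 (570 ± 133) were then highest, Galnt16, Maob and Fjx1 lay between 264 and 276 and did not differ beyond their spread, and Creb5 was lowest at 67.8 ± 11.8. The order depends on the exon length used, 25.02 kb for Creb5. Without that division the R10 mean of Creb5 (1697 CP20M) was above that of Slc1a6 (1481) and below those of Galnt16 (2124) and Ptprz1 (8115).

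Galnt16 differed most between regorafenib and vehicle. It read 15 CP20M in M3, 19 in M3(2), 40 in M1(2) and 51 in M11 under Ve. Under R4 it read 607, 638, 260 and 625 in the same order, and under R10 2189, 3074 and 1109 in the first 3 lines. The groups did not overlap, and M1(2) was the lowest line at both doses. On the log2(CP20M + 20) scale used for all folds below, which understates the change of low genes, the difference from Ve was 3.41 ± 0.38 (SE) at R4 and 5.33 ± 0.41 at R10. The antisense gene inside Galnt16, 4933406B15Rik (named AC125361.1 in the tables), lay between 0 and 9 CP20M in Ve and between 114 and 411 in R10.

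Ptprz1, the receptor phosphatase, reached the highest raw levels of the 8. Under Ve it read 445 CP20M in M3, 540 in M3(2), 382 in M1(2) and 184 in M11, under R4 4824, 3547, 2218 and 2438, and under R10 9822, 8441 and 6081 in the first 3 lines. Every regorafenib library lay above every vehicle library, and M3 was highest at both doses. The log2 differences from Ve were 3.03 ± 0.36 at R4 and 4.38 ± 0.39 at R10.

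The glutamate transporter gene Slc1a6 read 58 CP20M in M3, 43 in M3(2), 34 in M1(2) and 51 in M11 under Ve. Under R4 it read 764, 284, 282 and 639, and under R10 1927, 1380 and 1136 in the first 3 lines. M3 and M11 read higher than M3(2) and M1(2) at 4 µM, and the groups were separate. The log2 differences were 2.82 ± 0.36 at R4 and 4.48 ± 0.39 at R10.

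The transcription factor gene Creb5 read 106 CP20M in M3, 135 in M3(2), 147 in M1(2) and 118 in M11 under Ve, then 995, 697, 689 and 690 under R4 and 2016, 1433 and 1643 under R10. Its lines were close to each other apart from M3, which was high at both doses. The log2 differences were 2.42 ± 0.17 at R4 and 3.55 ± 0.18 at R10. The sarcomere gene Myom1 read 108, 72, 65 and 92 CP20M under Ve in the same line order, 1045, 441, 473 and 721 under R4, and 1359, 879 and 897 under R10. It was the only one of the 8 whose R4 and R10 groups overlapped, because M3 at R4 exceeded M3(2) and M1(2) at R10. The log2 differences from Ve were 2.66 ± 0.31 and 3.34 ± 0.33. The 6 striated muscle markers (Myh3, Myog, Myod1, Actc1, Tnnt2 and Ryr1) stayed at or below 38 CP20M in every library, and Myod1 was at 0 in all 19.

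Maob, Fjx1 and Dusp8 differed less from vehicle. Maob read 58, 60, 80 and 54 CP20M under Ve, 223, 266, 257 and 192 under R4, and 800, 800 and 656 under R10. Fjx1 read 115, 105, 174 and 190 under Ve, 520, 414, 426 and 387 under R4, and 907, 804 and 883 under R10. Dusp8 read 309, 331, 359 and 329 under Ve, 595, 560, 599 and 672 under R4, and 789, 842 and 974 under R10. In each of these genes the Ve, R4 and R10 groups were separate. On the log2 scale Dusp8 had the narrowest spread between lines in Ve (SD 0.084) and R4 (0.107). In R10 it was Fjx1 (0.089, against 0.152 for Dusp8). The log2 differences from Ve at R4 and R10 were 1.62 ± 0.23 and 3.22 ± 0.25 for Maob, 1.49 ± 0.20 and 2.45 ± 0.22 for Fjx1, and 0.83 ± 0.09 and 1.33 ± 0.09 for Dusp8.

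**Figure D1:**
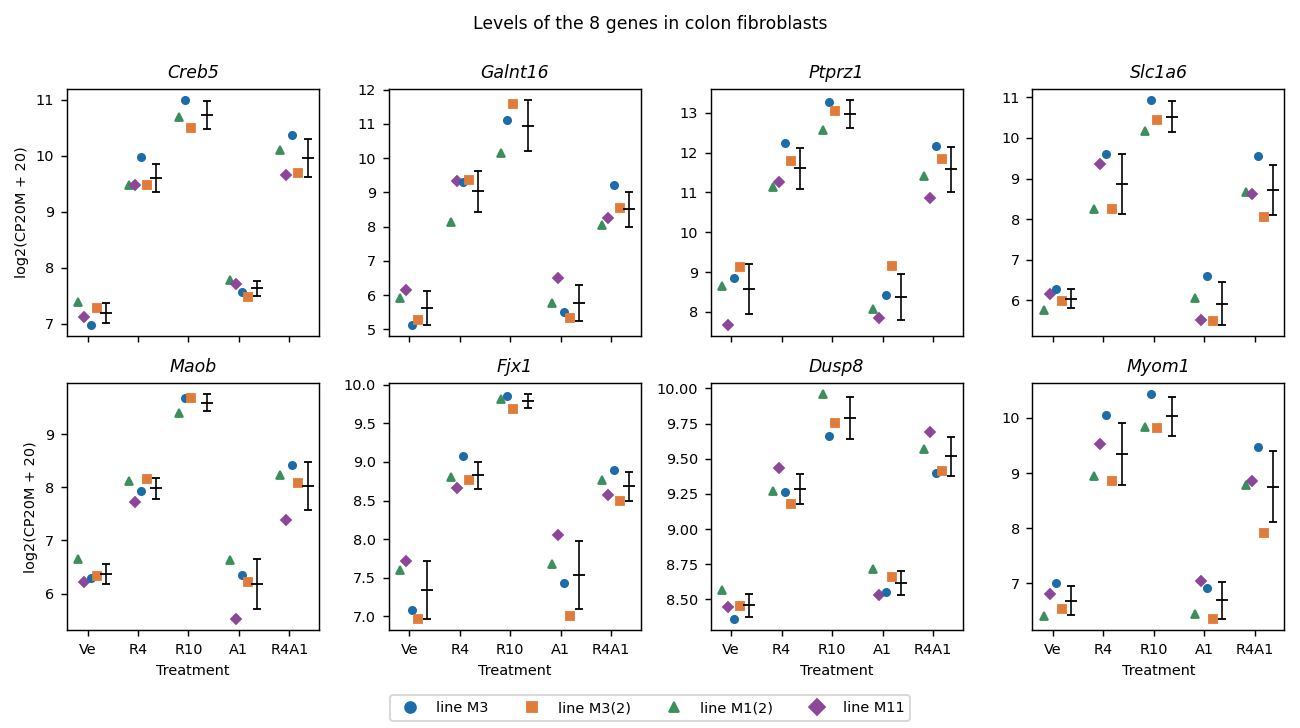
Level of each gene on the log2(CP20M + 20) scale in every fibroblast library, by treatment (Ve vehicle, R4 and R10 regorafenib at 4 and 10 µM, A1 autogramin-2, R4A1 both). Symbols mark the lines, and black bars with whiskers give the mean ± SD of a group (n = 4, and 3 for R10). All regorafenib libraries lie above all Ve and A1 libraries in each of the 8 panels. The genes were selected for a higher level with regorafenib.

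The level was higher at R10 than at R4 for the 8 genes in each of the 3 lines that received both doses. Both doses served in the selection, and how many of all genes had this order was not counted. Differences between R10 and R4 ranged from 0.50 ± 0.09 for Dusp8 to 1.92 ± 0.41 for Galnt16 on the log2 scale. Within lines, R4 gave the smallest share of the R10 change for Maob (median 53.3%, range 48.3% to 54.8%) and the largest for Myom1 (median 73.9%, range 70.7% to 89.2%). The other 6 genes had medians between 55.9% and 68.4%. The selected genes were at the top of the table at 10 µM, where Galnt16 ranked 1, Slc1a6 3, Ptprz1 4, Creb5 6, Myom1 9, Maob 11, Fjx1 22 and Dusp8 132 by log2 difference among the 11032 genes tested. The ranks follow from the selection.

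Autogramin-2 alone left no gene past the threshold, an adjusted p under 0.05 in limma and at least a 1.5-fold change. The percentage of genes called was 0, with 120 of 11032 at an unadjusted p under 0.05, and edgeR also called 0. None of the 8 was called, and 1 of them, Creb5, had an unadjusted p under 0.05. Only Ptprz1 and Dusp8 had passed the filter without regorafenib libraries. Creb5 read 170, 157, 199 and 189 CP20M in A1 (M3, M3(2), M1(2), M11). It was higher than Ve in 4 of 4 lines and the groups did not overlap, but the log2 difference of 0.44 ± 0.17 did not pass over all genes (limma, adjusted p = 1). Dusp8 (356, 385, 400 and 350 CP20M in A1) and Fjx1 (153, 108, 184 and 245) were also higher in 4 of 4 lines, by 0.16 ± 0.09 and 0.20 ± 0.20 on the log2 scale. How many of all genes were higher in 4 of 4 lines, or had groups that did not overlap, was not counted. For Ptprz1 the 95% interval of the difference ran from -0.97 to 0.55, for Slc1a6 from -0.88 to 0.63 and for Galnt16 from -0.65 to 0.95. In this fit, which ignores line, changes of those sizes cannot be told from none in these genes. The intervals of Dusp8 (-0.02 to 0.34) and Fjx1 (-0.22 to 0.62) were narrower. With line as a block the SE was 0.163 for Ptprz1, 0.215 for Slc1a6 and 0.324 for Galnt16, and none of them was called.

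Regorafenib added to autogramin-2 gave the comparison least tied to the selection, since A1 and R4A1 libraries are in neither the R4 nor the R10 contrast with Ve. The lines are the same ones, and it is not recorded whether these libraries were also looked at when the genes were chosen. In R4A1 the 8 genes were higher than in A1 in 4 of 4 lines, and the groups did not overlap. How many of all genes did the same was not counted, so this is a description. Only Ptprz1 and Dusp8 passed the filter without regorafenib libraries, so a test is given for these 2 alone and the other 6 are described. Ptprz1 read 322, 549, 248 and 209 CP20M in A1 and 4607, 3667, 2722 and 1850 in R4A1, a log2 difference of 3.21 ± 0.36 (limma, adjusted p = 0.000216). Slc1a6 read 77, 25, 47 and 26 in A1 and 729, 244, 386 and 376 in R4A1 (log2 difference 2.80 ± 0.36). Galnt16 read 25, 20, 34 and 71 in A1 and 571, 350, 242 and 285 in R4A1 (2.74 ± 0.38).

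Dusp8 rose from the A1 values above to 654, 661, 738 and 806 CP20M in R4A1, by 0.90 ± 0.09 on the log2 scale (limma, adjusted p = 6.69e-05). Creb5 read 1312, 807, 1087 and 792 in R4A1, a log2 difference of 2.33 ± 0.17 from A1. Myom1 read 101, 62, 67 and 111 in A1 and 689, 220, 421 and 442 in R4A1 (2.06 ± 0.31). These 2 genes were highest in line M3. Maob read 62, 54, 79 and 26 in A1 and 321, 249, 279 and 146 in R4A1 (1.84 ± 0.23). Fjx1 read 458, 340, 415 and 362 in R4A1, a difference of 1.15 ± 0.20. Its A1 library of M11, at 245, was the nearest to the R4A1 range.

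In this contrast 47 of 11032 genes were called higher, 0.426%, and the 8 genes were among them. That count is a description and no support, because 6 of the 8 entered the test through regorafenib libraries. With no filter the count was also 8. It was 5 when only A1 and R4A1 libraries entered the fit, where Maob, Fjx1 and Myom1 were not called. It was 6 without line M3 (Galnt16 and Fjx1 lost), 7 without M3(2) (Fjx1 lost) and 6 without M1(2) (Fjx1 and Myom1 lost). With line as a block the 8 were called and the calls over all genes in both directions went from 83 to 600.

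Adding autogramin-2 to regorafenib moved none of the 8 genes past the threshold (R4A1 against R4, limma). Over all genes 0.00906% were called, which is the single gene Txnip, the thioredoxin-interacting protein (-0.67 ± 0.10 on the log2 scale, adjusted p = 0.0293, named after its value was seen). At an unadjusted p under 0.05 there were 622 genes, 2 of the 8 among them, and edgeR called 0. The R4 libraries of this contrast also served in the selection for high R4 values, so its p-values for the 8 genes are descriptions and no support. Creb5 and Dusp8 were higher in R4A1 than in R4 in 4 of 4 lines, by 0.36 ± 0.17 and 0.23 ± 0.09 (adjusted p = 0.87 for each). Galnt16, Fjx1 and Myom1 were lower in 4 of 4 lines, by -0.52 ± 0.38, -0.14 ± 0.20 and -0.59 ± 0.31 (adjusted p = 0.938, 1 and 0.882). Ptprz1, Slc1a6 and Maob moved in different directions in different lines, and their differences were -0.03 ± 0.36, -0.14 ± 0.36 and 0.04 ± 0.23.

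Myom1 depended on how the lines entered the fit, and its call is a description, since its R4 values served in the selection. With line as a block its difference of -0.59 had an SE of 0.15 and passed (limma, adjusted p = 0.0432), while edgeR with the same block gave -0.57 (adjusted p = 0.0343), just under the 1.5-fold limit. Over all genes that block raised the calls from 1 to 158 in limma. For Creb5 and Dusp8 the blocked adjusted p-values were 0.14 and 0.0845. The 95% intervals of R4A1 against R4 without the block were -0.79 to 0.73 for Ptprz1, -0.90 to 0.61 for Slc1a6, -1.32 to 0.28 for Galnt16 and -1.25 to 0.06 for Myom1. Each upper bound lay below the difference between R4A1 and A1 in the same gene, but both contrasts hold the R4A1 libraries. How far autogramin-2 could lower the level is given by the lower bounds, which reach -1.32 for Galnt16 and -1.25 for Myom1. The change by autogramin-2 with R4 minus that without it was -0.67 ± 0.53 for Galnt16 and -0.60 ± 0.44 for Myom1, and lay between -0.34 and 0.23 for the other 6.

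**Figure D2:**
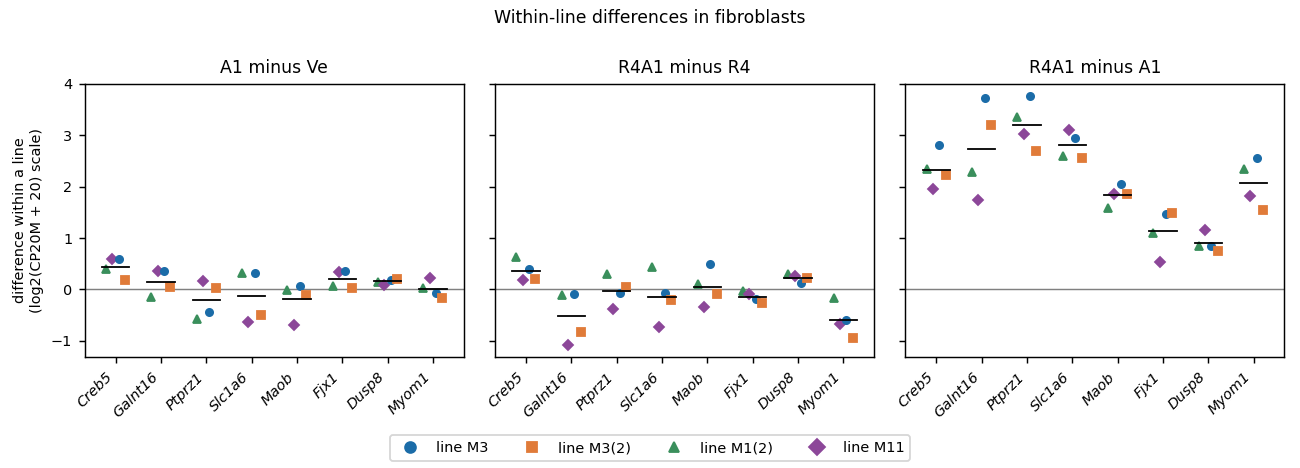
Differences within each fibroblast line on the log2(CP20M + 20) scale for A1 minus Ve, R4A1 minus R4 and R4A1 minus A1. Each symbol is 1 line and the black bar is the mean of 4 lines. Creb5 and Dusp8 are above 0 in 4 of 4 lines in the first 2 panels, Fjx1 is above 0 in the first and below 0 in the second in 4 of 4 lines, and Galnt16 and Myom1 are below 0 in 4 of 4 lines in the second. In the third panel every symbol is above 0, and how many of all genes do the same was not counted.

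Markers of other cell types differed with regorafenib too. The summed level of 5 smooth muscle markers (Myh11, Des, Cnn1, Actg2 and Smtn) was 24372, 21758, 15825 and 8314 CP20M in Ve (M3, M3(2), M1(2), M11) and 44496, 30481, 32256 and 19087 in R4. It was 39739, 31516 and 35219 in R10, 20256, 18141, 12650 and 5743 in A1, and 34120, 25253, 30159 and 13268 in R4A1. This sum was higher with regorafenib than without in every line, and Myh11 (513 to 1937 in Ve, 2606 to 4642 in R4) and Des (22 to 55 in Ve, 84 to 167 in R4) had no overlap between Ve and R4. Cnn1, Actg2 and Smtn did overlap there. Smtn read 1014 to 1082 in R10, inside its Ve range of 744 to 1540, and Des overlapped between A1 (58 to 77) and R4A1 (46 to 151). The sum of the 5 macrophage markers was lower with regorafenib, 1045 to 5313 CP20M in Ve against 627 to 1882 in R4, 582 to 611 in R10 and 446 to 704 in R4A1. In bulk RNA fewer cells of a type and less RNA per cell cannot be told apart, and the part of these shifts in the values of the 8 genes was not tested.

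The endothelial sum was higher in R4 than in Ve in each line, from 1091 to 1712 CP20M in M3, 9604 to 24171 in M3(2), 1930 to 5817 in M1(2) and 2668 to 6917 in M11, while at R10 it was 1298, 5748 and 1534 in the first 3. In R4A1 against A1 it was higher in M3 and M3(2) and lower in M1(2) and M11. The part of these markers in the values of the 8 genes was not tested. Fibroblast markers were abundant in all libraries (summed level 155743 to 228260), with Col1a1, Col1a2, Dcn and Vim high, Pdgfra between 152 and 4877 and Lum between 22 and 347. The epithelial sum was 33 to 309, with Krt20 at 15 to 213 in all 19 libraries, while Epcam was at 0 in 12 and Krt8 in 18 of the 19 libraries. Of the other lists the sums of mesothelial, pericyte and interstitial cell of Cajal markers stayed at or below 279, 1367 and 776, while the neuronal list reached 7989 through Tubb3 and Uchl1, with Snap25 at 0 in 18 libraries.

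**Figure D3:**
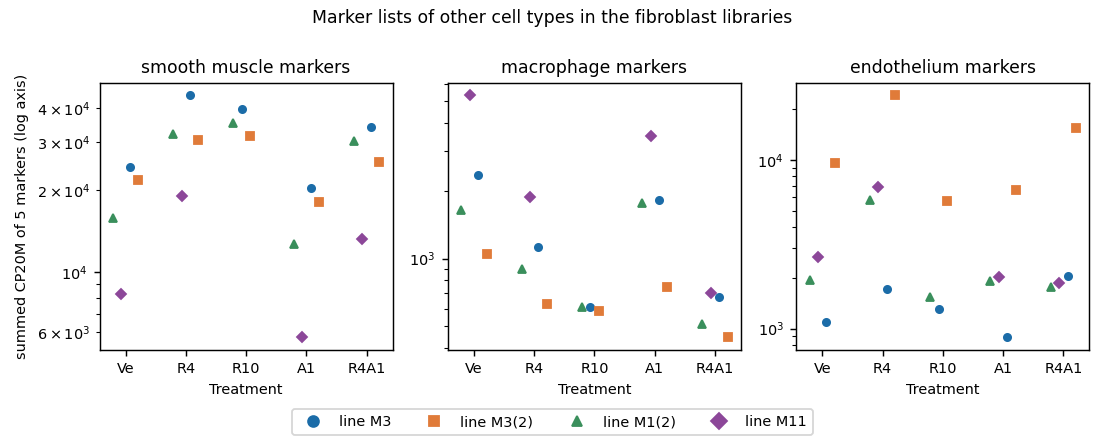
Summed CP20M of 5 markers each for smooth muscle, macrophages and endothelium in every fibroblast library (log axis), by treatment, with 1 symbol per line. Smooth muscle sums are higher and macrophage sums lower with regorafenib in each line, and the endothelial sum is higher in R4 than in Ve in each line.

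How many relatives of the 8 genes were called depended on the block. Of 97 relatives and partners in 8 lists (transcription factors around Creb5, O-glycan enzymes around Galnt16, receptor phosphatases and ligands around Ptprz1, SLC1 transporters around Slc1a6, amine oxidation around Maob, planar polarity around Fjx1, MAP kinase phosphatases around Dusp8 and sarcomere genes around Myom1), 68 passed the filter. At R4, 0 of 68 were called in limma, against 1.02% of all genes (113 of 11032, with 1502 at an unadjusted p under 0.05). With line as a block 8 of 68 were called in limma, 11.8% against 7.22% of all genes, and edgeR called 10 of them and 900 of all genes. At R10, 1 rose and 4 fell, against 7.33% of all genes called, and with line as a block 14 were called, 20.6% against 13.8% of all genes. The median log2 difference over the 68 was 0.05 at R4 and -0.07 at R10, beside 0 and -0.04 over all genes. No list gene was called for A1 against Ve, R4A1 against R4 or R4A1 against A1 in limma, and with line as a block the counts were 0, 2 and 7, beside 0, 158 and 600 of all 11032 genes.

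Ptn, which encodes the Ptprz1 ligand pleiotrophin, fell at R10. It read 384 to 1342 CP20M in Ve, 38 to 464 in R4 and 21 to 121 in R10. It was lower in each regorafenib library than in the vehicle library of the same line, and at R10 the groups were separate. The log2 difference was -3.25 ± 0.83 at R10 (limma, adjusted p = 0.0147) and -1.97 ± 0.77 at R4 (adjusted p = 0.244, and 0.000215 with line as a block).

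Among the other list genes at R10, Atf6, a membrane-bound sensor of endoplasmic reticulum stress, rose by 0.83 ± 0.17 (limma, adjusted p = 0.0042). It read 2862, 2924, 2794 and 2287 CP20M in Ve and 5045, 4993 and 4498 in R10. Fosl1, which encodes an AP-1 subunit, fell by 0.83 ± 0.26 (limma, adjusted p = 0.0428). The glutamine transporter gene Slc1a5 fell by 0.85 ± 0.19 (adjusted p = 0.0077). The glycosyltransferase gene Galnt13 fell by 1.96 ± 0.61 (adjusted p = 0.0422). It passed the filter only through M1(2) without regorafenib, at 310 CP20M in Ve and 260 in A1. In Ve it read 51 in M3, 146 in M3(2) and 86 in M11, and 7 to 24 in R10, so its call is a description. Of the 8 MAP kinase phosphatase genes tested beside Dusp8, 0 were called at R10 in limma and 2 with line as a block, where 13.8% of all genes were called.

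By similarity of pattern over the 19 fibroblast libraries, after subtraction of each line's mean, the members resembled each other, with Pearson's r from 0.92 (Galnt16 and Dusp8) to 0.99 (Galnt16 and Fjx1). These values describe 5 shared treatment groups and carry no test. The 3 closest other genes per member reached r between 0.977 and 0.992. Enah, which regulates actin filaments, was among the closest 3 for Creb5, Ptprz1 and Dusp8, and Ccdc80, a matrix protein gene, for Ptprz1, Slc1a6 and Myom1. Klhl8 was among those of Galnt16 and Fjx1. Closest to Galnt16 was its antisense gene (r = 0.99), followed by Notch3 (0.983), closest to Ptprz1 was Fgf13 (0.992), closest to Slc1a6 Fstl1 (0.991) and closest to Maob Igsf9b (0.984). Tgfb2 was among those of Myom1 (0.983), Ctgf among those of Dusp8 (0.984) and Svep1 and Vldlr among those of Creb5 (0.987 and 0.984). Most of these genes changed less than the members they resembled. The log2 difference from Ve at R10 was 1.91 for Enah, 1.62 for Ccdc80, 2.15 for Fgf13 and 2.08 for Notch3.

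In organoids 5 of the 8 genes were close to undetected. Slc1a6 was at 0 in 21 of 24 libraries and had at most 2 reads in any, and Galnt16 was at 0 in 9 libraries and had at most 3 reads. Myom1 lay between 0 and 20 CP20M, Maob between 0 and 46 and Fjx1 between 0 and 95. Myom1 was lower in R4 than in Ve in 3 of 3 colonoid lines (0, 7 and 2 CP20M against 16, 8 and 8 in M41, M40 and M1), which rested on at most 6 reads, and not at R8 (14, 15 and 14). Maob in M40 had 30 reads in Ve, 3 in R4 and 22 in R8. The libraries held 512600 to 22370031 reads, and these 5 genes did not pass the filter and were not tested. Fjx1 read 4, 3 and 9 CP20M in colonoids with Ve (M41, M40 and M1) and 95, 41 and 14 with R8, which rested on 48, 20 and 3 reads. In tumoroids it read 6, 6 and 5 in Ve and 24, 4 and 30 in R8 (F11, M3 and M14), and the groups overlapped. With 5-FU Fjx1 was also higher than Ve in 3 of 3 lines of each kind, at 7, 18 and 16 CP20M in colonoids and 19, 15 and 28 in tumoroids, where the groups did not overlap. These values rested on 4 to 16 reads in colonoids and 10 to 28 in tumoroids, against 1 to 6 and 4 to 6 in Ve. How many of all genes did the same was not counted, so this is a description.

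Creb5 was nearly silent in untreated organoids and present with regorafenib. In colonoids it read 10, 9 and 8 CP20M in Ve (M41, M40 and M1), 79, 55 and 65 in R4 and 342, 226 and 51 in R8. In tumoroids it read 2, 9 and 12 in Ve (F11, M3 and M14), 10, 356 and 93 in R4 and 11, 65 and 76 in R8. It was higher than Ve in every line at both doses, without overlap in colonoids, while tumoroid line F11 stayed near the vehicle level. The number of all genes with such a pattern was not counted. The log2 differences were 1.57 ± 0.72 and 2.67 ± 0.72 at R4 and R8 in colonoids, and 1.99 ± 0.72 and 1.21 ± 0.72 in tumoroids. The R4 value of colonoid line M41 came from a library of 512600 reads, in which 79 CP20M is 2 reads, and without that library the colonoid difference at R4 was 1.46 ± 0.83. The size depends on the pseudocount for such low values, and with 2 CP20M in place of 20 the colonoid differences at R4 and R8 were 2.62 ± 1.08 and 3.87 ± 1.08.

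Dusp8 was expressed in organoids at levels like those in fibroblasts. In colonoids it read 289, 673 and 241 CP20M in Ve (M41, M40 and M1), 1288, 654 and 577 in R4 and 1186, 942 and 527 in R8. In tumoroids it read 148, 448 and 454 in Ve (F11, M3 and M14), 359, 860 and 713 in R4 and 369, 464 and 631 in R8. It was higher than Ve in every line and dose except M40 at R4. The groups overlapped, and the log2 differences were 1.08 ± 0.50 and 1.17 ± 0.50 in colonoids and 0.91 ± 0.50 and 0.57 ± 0.50 in tumoroids. Without the shallow M41 library the colonoid difference at R4 was 0.73 ± 0.54.

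Ptprz1 went the other way. It was lower with regorafenib than with Ve in each of the 6 lines at both doses. In colonoids it read 61, 24 and 729 CP20M in Ve (M41, M40 and M1), 0, 15 and 358 in R4 and 18, 5 and 334 in R8. In tumoroids it read 51, 436 and 178 in Ve (F11, M3 and M14), 24, 164 and 56 in R4 and 40, 163 and 33 in R8. Lines differed more than treatments, with M1 the highest colonoid line at each treatment, so the log2 differences of -1.11 ± 1.20 and -0.996 ± 1.20 in colonoids and -1.13 ± 1.20 and -1.15 ± 1.20 in tumoroids had errors as large as themselves. With line as a block the errors were 0.43 at each of these. Without the shallow library, where 0 reads were found, the colonoid difference at R4 was -0.27 ± 1.31, and -0.70 ± 0.45 with line as a block.

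Fibroblast RNA was nearly absent from the organoids. Of the 7 fibroblast markers 6 stayed at or below 118 CP20M in all 24 libraries and Lum was at 0 throughout. Vim, the seventh, was 3 to 80 CP20M in colonoids with Ve against 500 to 2505 in R4 and 614 to 2416 in R8, and 0 to 6 in tumoroids with Ve against 221 to 326 in R4 and 364 to 491 in R8. Other lists differed with regorafenib through single genes. The striated muscle sum was 168 to 408 CP20M in colonoids with Ve against 1212 to 1545 in R4, and 128 to 344 against 901 to 1690 in tumoroids, and it was also higher with 5-FU in colonoids (791 to 877). Of that list Tnnt2 reached 1667 and no other gene exceeded 196, with Myog at 0 in all 24 libraries. The macrophage sum was 423 to 511 in colonoids with Ve against 596 to 3245 in R8, and 507 to 573 against 854 to 1736 in tumoroids, where Cd68 reached 2659 over all libraries while Lyz2 was at 0 in 22 and Adgre1 in 21 of 24. The part of these markers in the values of Creb5, Dusp8 and Ptprz1 was not tested.

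**Figure D4:**
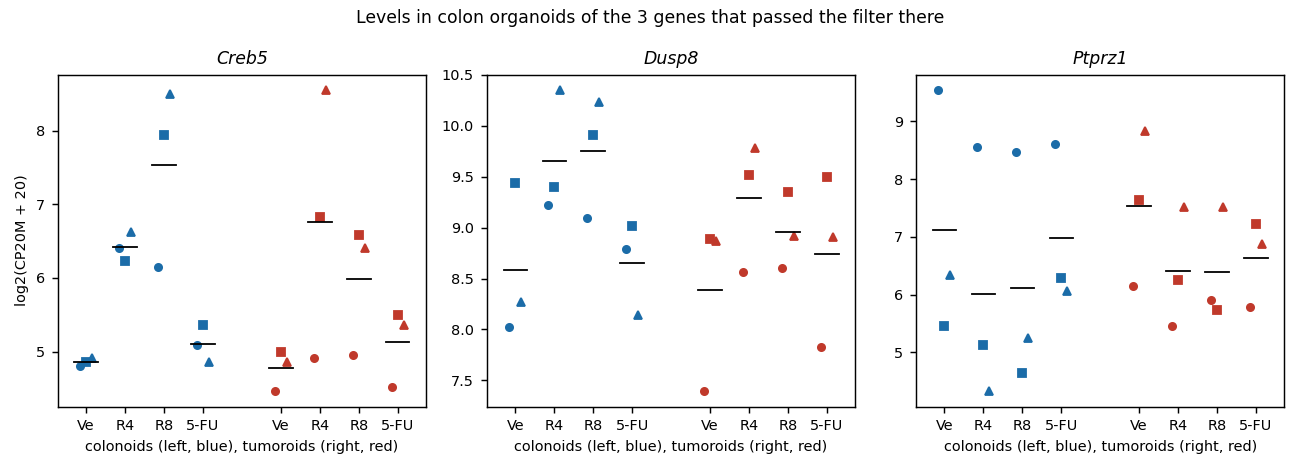
Level of Creb5, Dusp8 and Ptprz1 on the log2(CP20M + 20) scale in the 24 organoid libraries, colonoids in blue (circle M1, square M40, triangle M41) and tumoroids in red (circle F11, square M14, triangle M3). Black bars are means of 3 lines. Creb5 is higher with regorafenib than with Ve in each line, Ptprz1 is lower in each line, and with 5-FU Creb5 stays below 30 CP20M while Dusp8 is above Ve in each tumoroid line.

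5-FU, an antimetabolite that was no part of the selection, was used as a comparison drug in the same lines and shares the Ve libraries. Creb5 read 9, 21 and 14 CP20M with 5-FU in colonoids (M41, M40 and M1) and 3, 21 and 25 in tumoroids (F11, M3 and M14), all below 30. Dusp8 read 263, 497 and 421 in colonoids and 207, 461 and 701 in tumoroids, where it was above Ve in 3 of 3 lines and in M14 above the R8 value of 631. Ptprz1 read 47, 58 and 368 and 35, 98 and 130. None of the 3 genes tested was called in colonoids, where 0.0432% of 11562 genes were called, or in tumoroids, where 0.182% were. Creb5 entered these tests only through regorafenib libraries and was near the floor in Ve and 5-FU, so its missing call says little. At an unadjusted p under 0.05 none of the 3 passed either, against 787 and 1167 of all genes, and edgeR called none of them. In colonoids the log2 differences were 0.24 ± 0.72 for Creb5, 0.07 ± 0.50 for Dusp8 and -0.13 ± 1.20 for Ptprz1 (limma, adjusted p = 1 for each). In tumoroids they were 0.35 ± 0.72, 0.36 ± 0.50 and -0.91 ± 1.20 (adjusted p = 0.974, 0.945 and 0.938). The 95% intervals in this fit, which ignores line, were wide, from -1.26 to 1.75 for Creb5 and -0.97 to 1.11 for Dusp8 in colonoids. The effect of 5-FU did not differ between tumoroids and colonoids past the threshold for any of the 3 (adjusted p = 1).

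In vehicle none of the 3 genes was called between the Apc genotypes. Creb5 entered this test only through regorafenib libraries and read at most 12 CP20M in vehicle, so its missing call says little. Tumoroids minus colonoids gave -0.09 ± 0.72 for Creb5, -0.19 ± 0.50 for Dusp8 and 0.42 ± 1.20 for Ptprz1 (limma, adjusted p of 0.905 at the lowest), where 2.06% of all genes were called. None of the 3 had an unadjusted p under 0.05, against 1920 of all genes, and edgeR called none of them. For Ptprz1 the interval from -2.08 to 2.93 covers differences of several-fold in either direction.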

How the data were processed

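RNA was sequenced from 19 fibroblast and 24 organoid libraries. The authors trimmed the reads with Trimmomatic 0.36, aligned them to GRCm38 with STAR 2.5.3a and counted them per Ensembl gene with HTSeq 0.9.1 (versions from the submitters' processing notes). The deposited signal, CP20M, is the count scaled to 20000000 per library and rounded up, not divided by gene length. From the steps of 1 read between values, at least 99.61% of the values of a library came back as whole reads. Depth was 7949978 to 12825945 reads in fibroblasts and 512600 to 22370031 in organoids. Low values carry counting error, and SE also covers the variation between lines.

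Samples were grouped by their labels. For 5-FU, 3 tumoroid titles read colonoid, so genotype and library name were used, and library name placed 1 M3 library (R4A1) whose title gives no line. The members, lists, markers and tests were chosen with earlier results of these data known. Named are the members, per list and comparison up to 3 genes per direction past the threshold with the largest change, and the 3 genes most like each member. The marker list of 1 cell type is not reported here.

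Genes with at least 200 CP20M in at least 2 libraries were tested, 11032 in fibroblasts and 11562 in organoids. limma 3.58.1 (R 4.3.3) was fitted to log2(CP20M + 20) with a coefficient per group over all libraries of a table, with adjustment by Benjamini-Hochberg over all genes tested. A call needs an adjusted p under 0.05 and a 1.5-fold change. Alternatives were line as a block, a pseudocount of 2, other filters, TMM scaling, edgeR 4.0.16 on the recovered reads, the compared groups alone, and each line left out. In simulated data for R4A1 against A1 with 10826 genes, limma recovered 94% of 4-fold and 70% of 2-fold changes, and for 5-FU in colonoids with 11232 genes 82% and 39%.

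The same line received each treatment, so lines pair the samples. The deviations of same-line libraries from their group means correlated over genes by 0.34 at least and 0.72 on average in fibroblasts, and by 0.01 at least and 0.5 on average in organoids. Comparison of counts within groups found no duplicated library.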

Additional observations from a re-analysis of the deposited data

Results flagged for a closer look

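Of 32 groups of 4 fibroblast libraries examined for the 8 genes, 2 held a library far from the other 3, and chance gives about 5% of groups. Creb5 in line M3 under R4 read 995 CP20M against 689 to 697 in the other lines. Galnt16 in line M1(2) under R4 read 260 CP20M against 607 to 638 in the other lines. M3 also held the most Creb5 of the lines under R10 (2016 CP20M) and R4A1 (1312), and M1(2) the least Galnt16 under R10 (1109) and R4A1 (242).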

How the results depend on the processing

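Line as a replicate block raised the calls over all genes in limma from 1 to 158 for R4A1 against R4, 83 to 600 for R4A1 against A1, 5 to 77 and 21 to 287 for 5-FU in colonoids and tumoroids, 113 to 797 for R4 against Ve and 809 to 1519 for R10 against Ve. With the block 1 of the 8 genes (Myom1) was called for R4A1 against R4, and 8 and 14 list genes at R4 and R10 in place of 0 and 5. edgeR with that block, chosen after seeing the data, gave 215, 686, 210, 581, 900 and 1672 calls over all genes in the same order, and 10 and 16 list genes. The block changed no other call of the 8 genes. No paired analysis was possible for tumoroids against colonoids because no line has both genotypes.

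Calls over all genes were 0 with TMM and 0 with edgeR for R4A1 against R4, 1 and 0 for 5-FU in colonoids and 39 and 87 in tumoroids, and edgeR called 374 between genotypes in place of 238. Without a filter 0 were called for 5-FU in tumoroids and 144 between genotypes. With only the groups compared the counts were 0 for R4A1 against R4, 20 for R4A1 against A1 (5 of the 8 genes), 0 and 0 for 5-FU in colonoids and tumoroids, 1 between genotypes and 42 for R4 against Ve, from fewer samples. Without the shallow colonoid M41 R4 library they were 32, 230 and 785 for 5-FU in colonoids, in tumoroids and between genotypes, and 402 and 734 for 5-FU with the block as well, the latter chosen after seeing the data.

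With each line left out in turn, calls over all genes ranged from 0 to 0 for R4A1 against R4, 18 to 236 for R4A1 against A1 (6 to 8 of the 8 genes), 0 to 0 and 0 to 9 for 5-FU in colonoids and tumoroids, 15 to 360 between genotypes, 28 to 317 for R4 against Ve (0 to 4 list genes) and 358 to 1118 for R10 against Ve (0 to 10 list genes).

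Small differences changed sign, and the cause was not tested. By line left out, A1 against Ve ranged from -0.27 to 0.047 for Slc1a6 and -0.071 to 0.059 for Myom1 on the log2 scale, and R4A1 against R4 from -0.14 to 0.092 for Ptprz1, -0.34 to 0.053 for Slc1a6 and -0.11 to 0.17 for Maob. For 5-FU in colonoids Dusp8 ranged from -0.28 to 0.32, and was -0.05 in edgeR. Between genotypes Creb5 ranged from -0.20 to 0.072, Dusp8 from -0.47 to 0.30 and Ptprz1 from -0.41 to 1.12, with -0.31 in edgeR.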
